A study of Mus musculus with 18 samples.

Results

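The Sprr genes encode small proline-rich proteins, and every gene whose symbol starts with Sprr was followed: 13 of the 20325 genes in the deposited tables, 9 of them Sprr2 genes. The family was chosen by measured levels: Sprr2a1 and Sprr2a2 stood among the largest rises in H3.3K36M cells and Sprr1a among the largest in cells with siRNA against histone methyltransferases. These contrasts are therefore given as descriptions, with no p-value. The libraries were RNA-seq of the mouse mesenchymal line C3H10T1/2, a multipotent line from C3H embryos grown in DMEM with 10% serum and used at passages 10 to 15. Stable lines carried FLAG-HA-tagged wild-type H3.3 (2 libraries), H3.3 with lysine 36 changed to methionine (H3.3K36M, 2 libraries) or H3.1 with the same change (H3.1K36M, 2 libraries). Each histone construct was 1 line. Parental cells without a construct received scramble siRNA (control siRNA, 3 libraries) or siRNAs against Nsd1, Nsd2 and Setd2, which methylate H3K36 (HMT siRNA, 3 libraries). The 6 tumors were harvested 5 to 6 weeks after 2000000 H3.3K36M cells in Matrigel were injected under the skin of both flanks of female athymic SCID mice aged 6 to 8 weeks. The labels do not say which libraries came from separate cultures or mice, so p-values reflect only library-to-library variation, possibly all of it technical.

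SPRR proteins are cross-linked by transglutaminases, together with loricrin and involucrin, into the cornified envelope beneath the membrane of the outermost keratinocytes. Their genes lie in the epidermal differentiation complex, and many are induced when epithelia are wounded or inflamed. Sprr1a is also known from mouse and rat as a gene that neurons and heart muscle cells induce after injury. C3H10T1/2 cells are fibroblast-like and are not known as a site of cornification.

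Levels are the authors' median-normalised estimated read counts, scaled separately in a table with the siRNA libraries and in a table with the tumors, so levels are compared within a table. The 4 wild-type and H3.3K36M libraries stand in both tables. Depth ran from 13993307 to 56041798 estimated reads per library, and 1 estimated read was worth 0.438 to 1.73 in the siRNA table and 0.578 to 1.44 in the xenograft table. Among values of 1 to 20 estimated reads, 70.5 to 78.6% were whole numbers of reads (within 0.01) for wild-type and H3.3K36M cells, against 78.6 to 85.5% in the other groups. Whether that difference touches the comparisons of H3.1K36M with the H3.3 lines was not tested. In the HMT siRNA libraries the mean level of Setd2 was 34.9% of that in control siRNA libraries, that of Nsd1 69.4% and that of Nsd2, listed as Whsc1, 66.7%. The libraries of the 2 groups did not overlap for any of the 3 targets.

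All 13 genes lie on chromosome 3, in a cluster. Transcripts of Sprr2a1 and Sprr2a2 are near copies: 96.3% of the 50-base words of Sprr2a1 transcripts and 96.5% of those of Sprr2a2 also occur in another Sprr transcript. Both rows held identical values in every library, so they are 1 measurement listed as 2 rows, and any count of rows given here that includes them counts it under both names. The share of such words was 14.1% for Sprr2b, 12.5% for Sprr2i, 10.2% for Sprr2e, 4.27% for Sprr2d and 0.714% for Sprr2f. It was 0 for Sprr1a, Sprr1b, Sprr2h, Sprr2k, Sprr3 and Sprr4. The sum over the 9 Sprr2 rows is therefore given beside the single rows. That sum, and the share of it held by the Sprr2a pair, add both rows of the pair. Whether each row holds part or all of the shared reads was not tested.

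The 250 bases before the start of 4 genes are printed because the results turn on these genes. They are from RefSeq, build GRCm38.p6, 5′ to 3′ on the gene's strand, and capitals mark TGANTCA (the motif of AP-1, the Fos and Jun dimer), ATGCAAAT (the octamer) and TATAAA (the TATA box) on either strand. Sprr1a lies on the minus strand at chr3:92485882-92486131. Sprr2k at chr3:92432332-92432581, Sprr2d at chr3:92338890-92339139 and Sprr2a1 at chr3:92215585-92215834 lie on the plus strand.
Sprr1a: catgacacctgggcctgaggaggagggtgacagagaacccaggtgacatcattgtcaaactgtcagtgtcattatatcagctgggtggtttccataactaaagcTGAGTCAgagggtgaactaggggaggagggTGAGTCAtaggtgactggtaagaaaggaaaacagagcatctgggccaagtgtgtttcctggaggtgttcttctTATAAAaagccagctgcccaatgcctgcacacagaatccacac
Sprr2k: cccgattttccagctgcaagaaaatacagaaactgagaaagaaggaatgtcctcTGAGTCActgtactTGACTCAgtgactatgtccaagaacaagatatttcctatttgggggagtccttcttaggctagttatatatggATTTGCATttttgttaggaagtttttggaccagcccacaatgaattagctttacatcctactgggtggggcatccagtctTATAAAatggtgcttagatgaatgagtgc
Sprr2d: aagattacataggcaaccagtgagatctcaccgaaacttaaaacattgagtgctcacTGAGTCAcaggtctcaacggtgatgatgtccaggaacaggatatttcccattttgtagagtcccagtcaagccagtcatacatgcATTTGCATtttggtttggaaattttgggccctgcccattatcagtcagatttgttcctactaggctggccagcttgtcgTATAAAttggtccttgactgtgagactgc
Sprr2a1: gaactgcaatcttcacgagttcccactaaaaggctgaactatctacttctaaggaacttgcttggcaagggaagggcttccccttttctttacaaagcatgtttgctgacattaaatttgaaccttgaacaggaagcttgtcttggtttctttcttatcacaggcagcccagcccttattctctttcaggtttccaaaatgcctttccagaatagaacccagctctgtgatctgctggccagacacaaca

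The AP-1 motif was in the windows of 9 of the 13 genes and in 6.75% of 32851 RefSeq promoter windows of the same length. It began 193 to 198 bases before the start in Sprr2b, Sprr2d, Sprr2e, Sprr2f, Sprr2h, Sprr2i and Sprr2k, with a second match 182 bases before the start in Sprr2k. It began 146 and 116 bases before the start in Sprr1a and 111 bases before it in Sprr1b. The octamer was in 7 of 13 windows, all of Sprr2 genes, against 1.60% of all windows, and the TATA box in 10 of 13 against 12.4%. The Ets motif CNGGAAGT was in 0 of 13 windows against 7.58%, and the STAT motif TTCNNNGAA in 0 of 13 against 7.02%. The Klf motif GGGTGNG was in 3 of 13 windows against 27.5%, and the Nrf2 response element TGACNNNGC in 2 of 13 against 10.2%. All motifs were searched on both strands. In Sprr1a, 1 Klf match and 1 Nrf2 match overlap the AP-1 matches. The copies are alike by descent (the Sprr2d and Sprr2e windows are 89.3% identical, those of Sprr2h and Sprr2k 80.6%), so they are not independent. The Sprr2a1 and Sprr2a2 windows are 100% identical and hold none of the 7 motifs, which says nothing beyond these letters. They are 49.3 to 52.8% identical to the windows of Sprr2b to Sprr2k, which are 60.1 to 89.3% identical to one another. The RefSeq start of Sprr2a1 and Sprr2a2 may not be the start used in these cells, which was not tested.

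**Figure D1:**
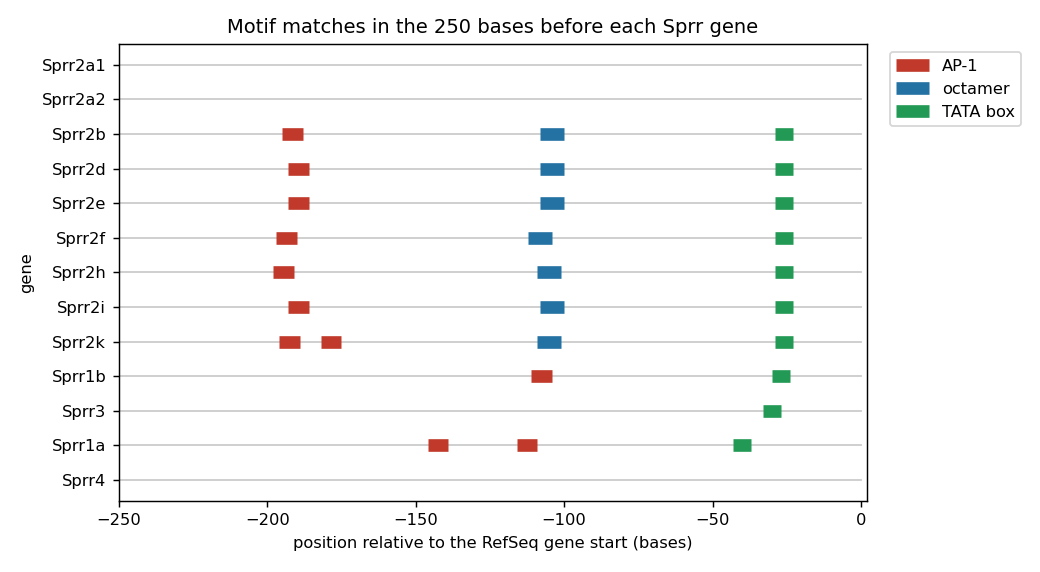
Matches to the AP-1 motif, octamer and TATA box in the 250 bases before each of the 13 Sprr genes, in bases from the RefSeq start, with genes in chromosome order. The Sprr2b to Sprr2k windows carry the 3 motifs in the same order, and the Sprr2a1, Sprr2a2 and Sprr4 windows carry none of the 3.

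In cultured cells 4 rows of the siRNA table reached a level of 10 in 2 or more libraries: Sprr1a, Sprr2a1, Sprr2a2 and Sprr2k. Sprr2a1 read 23.8 and 37.3 in wild type, 8163 and 8155 in H3.3K36M, 15.0, 12.9 and 10.3 in HMT siRNA, and 3.04, 1.25 and 1.06 in control siRNA. The 2 H3.3K36M libraries were far above all others, the wild-type libraries came next, and HMT siRNA stood between wild type and control siRNA, with no overlap between any of the 4 groups. Sprr2a1 was 8.05 ± 0.31 (SE) higher in H3.3K36M than in wild type on the log2(value + 1) scale, and 2.36 ± 0.25 higher in HMT siRNA than in control siRNA.

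Sprr1a read 2.98 and 5.33 in wild type, 144 and 146 in H3.3K36M, 260, 215 and 226 in HMT siRNA, and was listed at 0 in the 3 control siRNA libraries. It was highest in HMT siRNA, next in H3.3K36M and then in wild type, again without overlap. It was 4.86 ± 0.31 (SE) higher in H3.3K36M than in wild type on the log2(value + 1) scale.

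Sprr2k read 2.98 and 1.07 in wild type, 153 and 173 in H3.3K36M, 154, 134 and 129 in HMT siRNA, and 0, 2.51 and 1.73 in control siRNA. Its H3.3K36M and HMT siRNA libraries overlapped, as did those of wild type and control siRNA. It was 5.84 ± 0.46 (SE) higher in H3.3K36M than in wild type and 6.04 ± 0.38 higher in HMT siRNA than in control siRNA on the log2(value + 1) scale.

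In the fit over all genes, 12.2% of 13186 genes were called at least 2-fold higher in H3.3K36M than in wild type and 4.81% of 12634 in HMT siRNA than in control siRNA. The 4 rows named above are among them in both contrasts by the choice of the family, so nothing is read from that count. With no filter on low values 10 rows met the H3.3K36M rule. With a pseudocount of 10, or with a filter of 50, 2 of the rows met the HMT siRNA rule.

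Set against H3.3K36M, the 3 genes parted in the HMT siRNA cells. The mean level of Sprr1a in HMT siRNA was 161% of that in H3.3K36M, that of Sprr2k 85.3% and that of the Sprr2a pair 0.156%. In wild type the same values were 2.87%, 1.24% and 0.375%. The sum of the Sprr2 rows was 50.6 and 75.7 in wild type, 16499 and 16505 in H3.3K36M, 186, 162 and 151 in HMT siRNA, and 6.07, 5.02 and 3.84 in control siRNA. The Sprr2a pair made up 99.0 and 98.8% of that sum in H3.3K36M and 13.7 to 16.1% in HMT siRNA, where Sprr2k made up most of the rest.

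**Figure D2:**
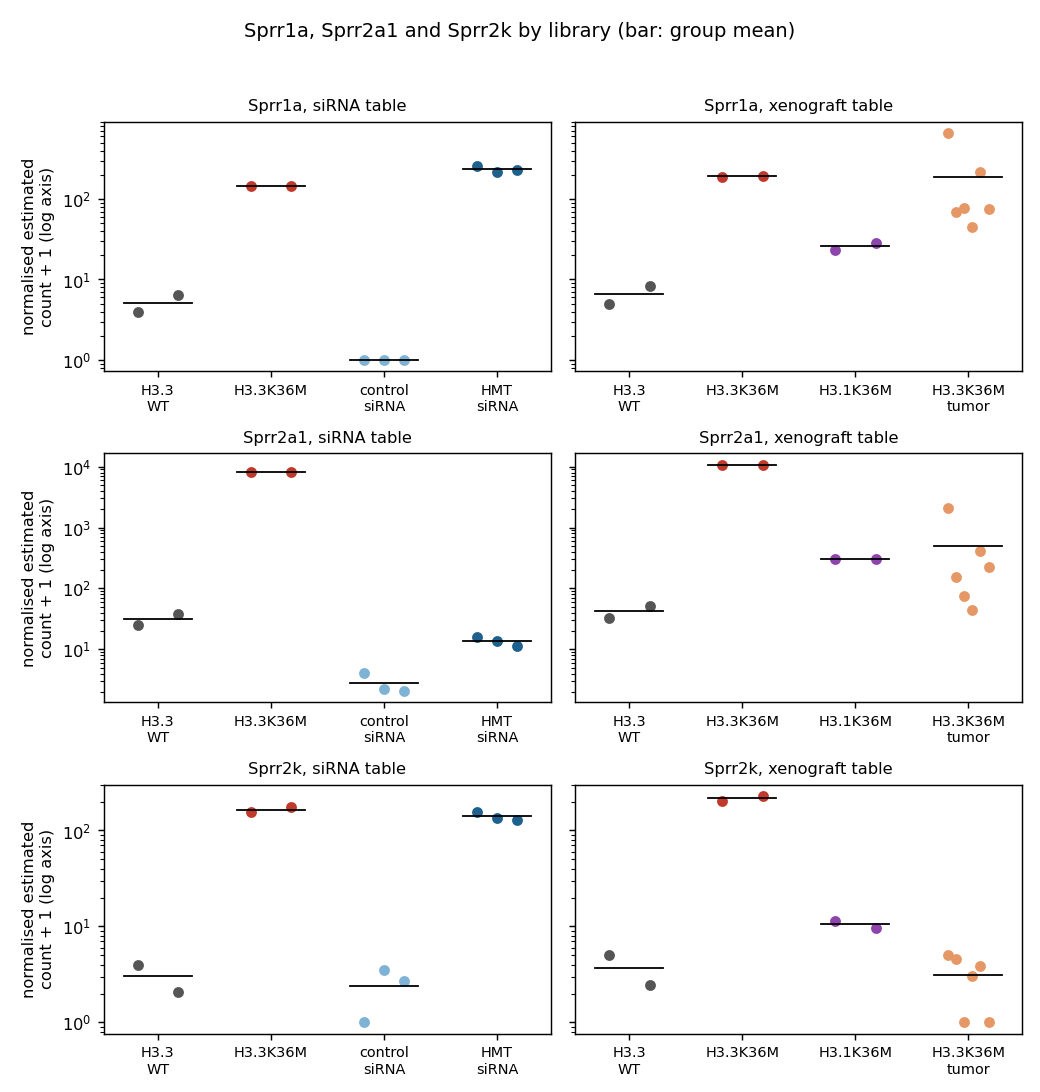
Level + 1 of Sprr1a, Sprr2a1 and Sprr2k in each library (points) with group means (bars), on log axes, for the siRNA table and the xenograft table. Sprr1a and Sprr2k stand near their H3.3K36M level in HMT siRNA (161% and 85.3% of it), and Sprr2a1 at 0.156% of it.

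The remaining 9 rows stayed low in these cells. Sprr2f read 9.21 and 10.8 in H3.3K36M, Sprr2b 6.33 and 5.85, and Sprr3, an envelope precursor of the oral and oesophageal lining, 2.63 and 7.19. All 3 were listed at 0 in wild type and control siRNA, and at most at 4.43 in HMT siRNA. Sprr1b, Sprr2d, Sprr2e and Sprr2h were at 2.88 or less in H3.3K36M and at 0 in wild type. Sprr2i and Sprr4 were at 0 in all 10 libraries.

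**Figure D3:**
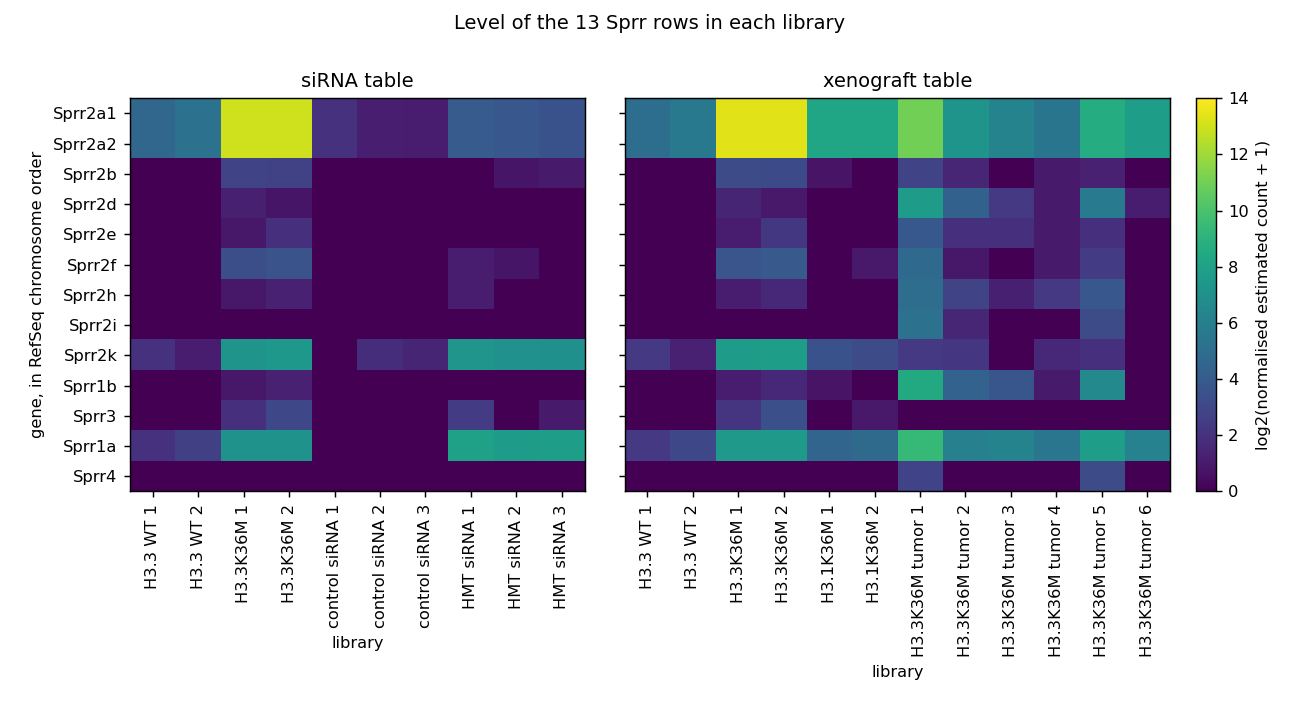
Level of the 13 Sprr rows (rows, in RefSeq order) in every library (columns) of both tables, as log2(value + 1). Sprr2a1, Sprr2a2, Sprr1a and Sprr2k hold the highest values in cultured cells, and Sprr1b, Sprr2d, Sprr2h and Sprr2i appear in tumors 1 and 5.

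The 5 nearest RefSeq genes on each side of the cluster stayed low in culture, as did the low Sprr rows named above. None of these neighbours exceeded 9.64 in a library of the siRNA table. That value was of Ivl, which encodes involucrin and read 9.64 and 4.31 in H3.3K36M and 0 in wild type. Prr9, Lelp1 and Pglyrp3 were also at 0 in wild type, and read 0.877 to 3.60 in the 2 H3.3K36M libraries. Lor, which encodes loricrin, read 0.478 and 0 there. Of 17 keratinocyte markers, 4 were at 0 in one of the same libraries and 7 in the other. Krt1, Krt6a, Krt6b and Krt17 were at 0 in both and Krt5 read 1.32 and 0, genes named after their values were seen. Other markers of the list were present: Itgb4 read 641 to 656, Perp 408 to 411, Col17a1 107 to 114, Krt10 92.1 to 106 and Krt14 17.8 to 19.2. The summed level of 17 keratinocyte markers was 1336 to 1354 in H3.3K36M, below the 4944 to 5051 of wild type. Of 13 simple epithelium markers 6 were tested, and 5 were called higher and 1 lower in H3.3K36M, where 37.5% of all genes tested were called higher and 33.3% lower. Their summed level was 736 to 770 there against 176 to 186 in wild type, 87.7 to 111 in HMT siRNA and 96.9 to 117 in control siRNA. Its part in the Sprr levels was not tested.

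The genes whose log2 levels followed the Sprr2 sum most closely over the 10 libraries of the siRNA table, among 2648 genes that varied, were Hpse (heparanase, Pearson r = 0.996), Ltbp1 (a binder of latent TGF-beta), Phf15, Krt80 (a keratin) and Apol11b, each of the last 4 at r = 0.992. Those nearest to Sprr1a were Spp1 (osteopontin, r = 0.996), Pstpip2 (0.984), Ereg (epiregulin, an EGF receptor ligand, 0.973), Prl2c2 (proliferin, which has near copies, 0.972) and Spry1 (an inhibitor of receptor tyrosine kinase signalling, 0.970). These are descriptions over libraries that fall into 4 groups. Mean Spp1 was 7541 in wild type, 32568 in H3.3K36M, 3058 in control siRNA and 33657 in HMT siRNA, and so shared with Sprr1a a high level in both H3.3K36M and HMT siRNA. Mean Krt80 was 106, 623, 63.8 and 147 in the same order, highest in H3.3K36M.

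H3.1K36M cells, whose libraries did not enter the choice of the genes, carried the same residue change on another H3 variant. Sprr1a read 22.3 and 27.8 in H3.1K36M, 4.01 and 7.22 in wild type and 190 and 193 in H3.3K36M of the xenograft table. Sprr2a1 read 303 and 307 in H3.1K36M, 32.0 and 50.5 in wild type and 10762 and 10765 in H3.3K36M. Sprr2k read 10.5 and 8.63 in H3.1K36M, 4.01 and 1.44 in wild type and 202 and 228 in H3.3K36M. For each of these genes H3.1K36M stood between wild type and H3.3K36M, and no groups overlapped.

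Against wild type, Sprr1a rose by 2.01 ± 0.28 (SE) on the log2(value + 1) scale in H3.1K36M (adjusted p = 8.49e-06, limma with Benjamini-Hochberg adjustment over all genes tested). Sprr2a1 rose by 2.89 ± 0.22 (adjusted p = 0.000181) and Sprr2k by 1.59 ± 0.35 (adjusted p = 0.000754), while the difference of Sprr2f was 0.48 ± 0.68 (adjusted p = 0.521). Of the 5 tested rows 4 were called higher and 0 lower, where 41.1% of 13404 tested genes were called higher and 38.4% lower (limma; 0 of the rows were lower at an unadjusted p under 0.05). The wild-type libraries in this test did enter the choice of the genes. Sprr2k and Sprr2f were tested only because H3.3K36M, which led to that choice, lifted them past the minimum level of 10 in 2 libraries. Sprr2k held 15 and 9 estimated reads in H3.1K36M against 3 and 1 in wild type, so its call rests on few reads. Fitted together with the 6 tumors, none of the 4 passed (adjusted p = 0.102 for Sprr2a1, 0.126 for Sprr1a and 0.147 for Sprr2k).

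The H3.3K36M libraries, whose high levels led to the choice of the family, are the reference of the next comparison. Lower values against them are not independent of that choice, so no p-value is given for the Sprr genes there. Sprr2a1 fell by 5.14 on the log2(value + 1) scale in H3.1K36M against H3.3K36M (SE 0.22), and Sprr1a fell by 2.89 (SE 0.28). Sprr2k differed by -4.36 (SE 0.35) and Sprr2f, at 0 and 0.958 in H3.1K36M, by -3.34 (SE 0.68). These last rows reached the minimum of 10 in 2 libraries only through H3.3K36M, which fixed the direction. All 5 tested rows were called lower, where 32.8% of the 13404 genes were, and nothing is read from that count for the same reason. The Sprr2 sum read 617 and 623 in H3.1K36M, and its log2(value + 1) difference from H3.3K36M was -5.13. In mean level H3.1K36M held 13.1% of the H3.3K36M value for Sprr1a, 4.44% for Sprr2k and 2.83% for Sprr2a1. With the 6 tumors in the fit Sprr1a missed the threshold, and with no filter on low values 10 rows were called lower.

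**Figure D4:**
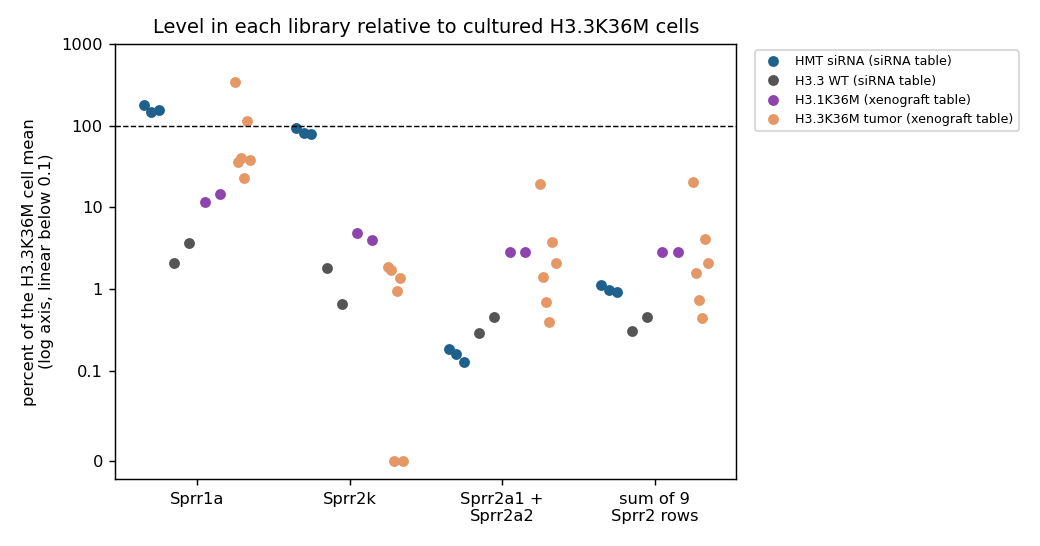
Level in each library as a percent of the mean of cultured H3.3K36M cells in the same table (dashed line, 100), on a log axis that is linear below 0.1. H3.1K36M stands at 13.1% for Sprr1a and 2.83% for the Sprr2a pair, and the tumors spread from 0.396 to 19.3% for that pair.

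In the tumors grown from H3.3K36M cells, Sprr2a1 and Sprr2k, high in culture, were low, while rows near 0 in culture were higher in some tumors without passing the test. Sprr2k read 4.02, 3.62, 0, 2.02, 2.89 and 0 in tumors 1 to 6, all below the 202 and 228 of cultured cells. Sprr2a1 read 2077, 151, 74.8, 42.7, 403 and 224, also all below the 10762 and 10765 in culture, and tumor 4 stood within the wild-type range. Sprr2a1 fell by 5.65 on the log2(value + 1) scale (SE 1.19). The cultured H3.3K36M libraries that serve as reference led to the choice of the family. This fall is not independent of that choice, and no p is given for it. Sprr2k differed by -6.40 (SE 0.74). It reached 10 only in the cultured libraries, which fixed the direction, and no p is given.

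Sprr1a read 654, 67.8, 76.2, 43.5, 218 and 73.4 in tumors 1 to 6. Tumors 1 and 5 were above the 190 and 193 of cultured H3.3K36M cells and the other 4 were below. Its difference was -0.72 ± 0.88 (SE) on the log2(value + 1) scale and did not pass (adjusted p = 0.472, limma). Sprr1b, an envelope precursor like Sprr1a, read 357, 19.9, 12.2, 1.01, 95.7 and 0 against 1.16 and 1.90 in culture, a difference of 2.71 ± 1.98 that did not pass (adjusted p = 0.235).

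Sprr2d read 204, 19.0, 4.08, 1.01, 54.9 and 1.15 against 1.73 and 0.949 in culture. Sprr2h read 30.8, 6.33, 1.36, 4.05, 12.99 and 0, and Sprr2f 26.4, 0.904, 0, 1.01, 4.30 and 0 against 12.1 and 14.2 in culture. Tumor 1 was highest and tumor 5 second for Sprr2d, Sprr2h and Sprr2f. None of these 3 passed (adjusted p = 0.198, 0.358 and 0.103). Sprr2i, at 0 in every cultured library, read 37.8 in tumor 1, 1.81 in tumor 2 and 8.65 in tumor 5, Sprr4 read 6.03 in tumor 1 and 8.66 in tumor 5, and Sprr3 was at 0 in all 6 tumors. Sprr2b read at most 6.40 and Sprr2e at most 13.7, both in tumor 1. Of the 8 tested rows 3 were called lower and 0 higher, where 34.2% and 41.0% of 14842 tested genes were (limma; at an unadjusted p under 0.05 the counts were also 3 and 0). The 3 rows are Sprr2a1, Sprr2a2 and Sprr2k, so nothing is read from the count. With no filter on low values 5 rows were called lower.

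The summed Sprr2 level was 4477, 339, 158, 95.4, 895 and 450 in tumors 1 to 6, against 21751 and 21786 in cultured H3.3K36M cells. Several Sprr rows were high in the tumors in which keratinocyte genes were high. Krt5 read 8880, 3090, 5092, 58.7, 10274 and 21.8 in tumors 1 to 6, Krt1 read 2211, 143, 605, 12.1, 2001 and 3.44, and Lor read 664, 59.7, 249, 14.2, 747 and 1.15. All 3 were highest in tumors 1 and 5 and lowest in tumors 4 and 6, as was Sprr1b. Sprr2a1 did not keep that order, since tumor 6, with the lowest Krt5, read 224 and stood above tumors 2, 3 and 4. Tumor 3 stood above tumor 2 for Krt5, Krt1 and Lor, but below it for Sprr1b, Sprr2d and Sprr2h. The summed level of 17 keratinocyte markers was 15317 to 74114 in the tumors, and Itgb4 alone read 11933 to 20589 there. Of the 17, 11 were called higher than in culture and 0 lower, where 41.0% and 34.2% of all genes tested were. Injected cells and mouse host cells are of 1 species and cannot be told apart in these reads, and fewer cells of a type cannot be told apart from less RNA per cell. Without tumor 1 the count called lower was 4, and the added row was Sprr2f, which then reached 10 only in the cultured libraries, so nothing is read from it.

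**Figure D5:**
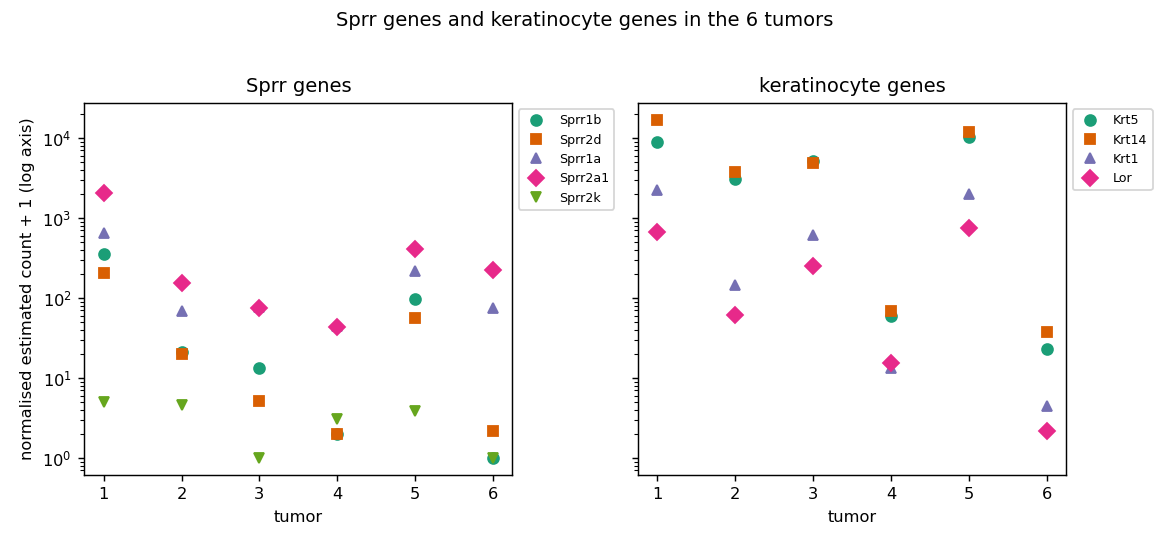
Level + 1 of 5 Sprr genes (left) and 4 keratinocyte genes (right) in each of the 6 tumors, on a log axis. Sprr1b and Sprr2d are highest in tumors 1 and 5 and low in tumors 4 and 6, as are Krt5, Krt14, Krt1 and Lor, while Sprr2k is at 4.02 or less in all 6.

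Other genes of the envelope, of the region and of the factors that act on Sprr genes were counted from lists. The counts stand beside the share of all genes tested that was called higher and lower, which was 37.5% and 33.3% in H3.3K36M against wild type, 32.6% and 32.8% in HMT siRNA against control siRNA, 35.4% and 32.8% in H3.1K36M against H3.3K36M, and 41.0% and 34.2% in tumors against H3.3K36M cells. Of 34 listed envelope precursors 29 were in the table. In the tumor comparison 23 were tested and 4 were called higher, with a median difference of 3.88 against 0.14 over all genes tested, and in the other comparisons at most 1 was tested. Their summed level was 34.5 to 39.9 in H3.3K36M and 0 to 1.07 in wild type of the siRNA table. Of 14 S100 genes of the region 10 were tested in H3.3K36M against wild type, and 5 were called higher and 1 lower. S100a6, a calcium-binding protein, rose by 1.21 there (SE 0.06, adjusted p = 8.85e-13, limma). S100a10 rose by 0.46 (SE 0.05), and S100a4 differed by 0.11 (SE 0.06, adjusted p = 0.109, limma). In HMT siRNA 4 of 9 were higher and 2 lower, and in tumors 10 of 13 were higher and 0 lower. Of the transglutaminases and envelope partners 9 of 16 were higher and 4 lower in H3.3K36M, 8 of 14 higher and 3 lower in HMT siRNA, 4 of 17 higher and 9 lower in H3.1K36M against H3.3K36M, and 13 of 25 higher and 2 lower in tumors. Anxa1 (annexin A1) rose by 1.41 in H3.3K36M (SE 0.04, adjusted p = 1.04e-15) and by 1.05 in HMT siRNA (SE 0.04, adjusted p = 1.35e-15). Cdsn differed by 0.35 and 0.18, and Cstb by 0.46 and -0.19, in the same order.

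Of 8 tested AP-1 subunits 4 were called higher and 1 lower in H3.3K36M, 4 higher and 2 lower in HMT siRNA, and 6 higher and 0 lower in H3.1K36M against H3.3K36M. In tumors 8 of 9 were higher. Fosl2 differed by 0.02 in H3.3K36M and by -0.003 in HMT siRNA, Jun by 0.39 and 0.20, and Jund by 0.61 and 0.10. Fosl1, named after its values were seen, read 57.1 and 43.2 in wild type, 459 and 389 in H3.3K36M, 343, 339 and 422 in HMT siRNA, and 57.1, 53.1 and 50.7 in control siRNA. It was high in the same groups as Sprr1a and Sprr2k, without overlap with wild type or control siRNA. In the xenograft table it read 898 and 824 in H3.1K36M and 606 and 514 in H3.3K36M. The difference between them was 0.62 (SE 0.12). In tumors Fosl1 read 2580 to 5967, higher by 3.06 than in cultured H3.3K36M cells (SE 0.28). No p is given for Fosl1, since it was picked by its values, and its part in the Sprr levels was not tested. Of the epithelial regulators 2 of 10 were higher and 5 lower in H3.3K36M, 3 of 10 higher and 3 lower in HMT siRNA, and 6 of 15 higher and 5 lower in tumors. Klf4 fell by 0.58 in H3.3K36M (SE 0.05, adjusted p = 1.01e-08) and rose by 0.27 in HMT siRNA (SE 0.04, adjusted p = 1.12e-05). Ets2 differed by -0.65 and -0.91, and Nfe2l2 by 0.37 and 0.20, in the same order. Of the gp130 and STAT3 pathway 9 of 16 were higher and 4 lower in H3.3K36M, 4 of 16 higher and 5 lower in HMT siRNA, and 8 of 18 higher and 4 lower in tumors. Stat3 itself fell by 0.98 in H3.3K36M (SE 0.04, adjusted p = 5.26e-13) and by 0.52 in HMT siRNA (SE 0.04, adjusted p = 1.34e-10). Of the nerve and tissue injury genes 6 of 8 were higher and 1 lower in H3.3K36M, 5 of 8 higher and 2 lower in HMT siRNA, 6 of 8 higher and 1 lower in H3.1K36M against H3.3K36M, and 7 of 10 higher and 2 lower in tumors.

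Markers of other cell types were counted in the tumor comparison, where 41.0% of all genes tested were called higher and 34.2% lower. The part of these cell types in the Sprr levels was not tested. Of 11 macrophage markers all 11 were called higher in tumors, with summed levels of 258313 to 387917 against 526 to 534 in cultured H3.3K36M cells. Of 10 endothelial markers 9 were called higher. Of 11 mesenchymal markers 6 were called lower and 3 higher, and their summed level was 374810 to 437114 in tumors against 955378 to 1016382 in culture. Of 7 mammary gland markers 2 were called higher, with a summed level of 21.7 to 25150.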

How the data were processed

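RNA was extracted with Trizol and made into TruSeq libraries, per the labels' protocols. Bowtie 1.0.0 and RSEM 1.2.12 on mm9 are named in the submitters' processing notes. The deposited values are the authors' signal: RSEM estimated counts median-normalised by the authors, separately per table. They are not whole: at a tolerance of 0.01 reads, 35.3 to 56.0% were whole, so no count test was used. Another table of the 4 H3.3 libraries was not used for tests. Members and lists were chosen with earlier results of these data known. A gene was tested if its value reached 10 in a number of libraries equal to the smaller group's size, by limma 3.58.1 (trend and robust) on log2(value + 1), two-sided, Benjamini-Hochberg threshold 0.05, without a replicate block. The fits held 10 libraries (siRNA table), 6 (H3.1K36M) and 8 (tumors). Fold differences understate the change of low genes. Genes named outside the 13 came from the 3 of highest mean in each list, not all of which are given, and from the 5 most alike. Fosl1, the targeted genes, neighbours, and the keratinocyte genes beside Itgb4, Perp and Krt14 were named outside that rule, after their values were seen. Rows with at least 10 in 2 libraries of a table were described with values. The fits were tested on simulated data. The most frequent value of a library was taken as 1 estimated read. Alternatives changed the pseudocount, filter, scaling, libraries and block. RefSeq promoter windows (GRCm38.p6) were matched by symbol for all 13 members, and 50-base words came from GENCODE transcripts. The number of libraries limits the precision.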

Additional observations from a re-analysis of the deposited data

Results flagged for a closer look

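Among the 6 tumors, tumor 1 lay far from the others for 9 rows and for the Sprr2 sum, 10 of 14 quantities checked. The levels were taken without a log. The gap between tumor 1 and the next tumor, divided by the range of the 6, was above the 95% critical value of Dixon's test for 6 samples in each. It was 0.714 for Sprr1a, 0.732 for Sprr1b, 0.823 for Sprr2a1 and for Sprr2a2, 0.719 for Sprr2b, 0.734 for Sprr2d, 0.790 for Sprr2e, 0.837 for Sprr2f, 0.771 for Sprr2i and 0.818 for the Sprr2 sum. Sprr2h, at 0.578, stayed under the value, as did Sprr2k and Sprr4. Sprr3, also among the 14, was at 0 in all 6 tumors and gave no ratio. The critical value is for normally distributed levels, under which chance alone passes about 1 in 20 groups. Whether these levels, taken without a log, are so distributed was not tested. The rows share 1 library and in part share reads, so they are not separate observations. Tumor 1 also had the highest summed level of keratinocyte markers, 74114, which tumor 5 followed with 52015, and the part of these cells in the Sprr levels was not tested.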

How the results depend on the processing

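Leaving out 1 library at a time, the count of rows called higher in H3.1K36M against wild type stayed at 4, of rows called lower against H3.3K36M at 5, and of rows called lower in tumors at 3 to 4. The count at least 2-fold higher was 4 to 5 in H3.3K36M against wild type and 4 in HMT siRNA. With no filter on low values, 10 rows were lower in H3.1K36M against H3.3K36M, 5 lower in tumors and 10 higher in H3.3K36M against wild type. With a pseudocount of 10 or a filter of 50, 2 rows were higher in HMT siRNA. With all 12 libraries of the table in the fit, which adds the spread of the tumors, 0 rows were higher in H3.1K36M against wild type and 3 lower against H3.3K36M. With tumors 1 and 5 left out, or tumors 4 and 6 only, sets chosen after seeing the data by the summed keratinocyte markers, 5 rows were lower in tumors. Tumors 1 and 5 are also those of highest Sprr1a, so nothing is read from that count. With quantile normalisation the Sprr2 sum differed by -5.09 between H3.1K36M and H3.3K36M (-5.13 as reported), and the cause was not tested. That scaling moved the median of all genes from 0.14 to -0.08 in the tumor comparison and took Sprr2f past the threshold (-3.31, adjusted p = 0.0173, limma).

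The labels number the replicates, and whether the numbers pair the samples cannot be decided from so few libraries. Same-numbered deviations correlated at 0.046 to 0.096 in the siRNA groups, where 5 of 6 libraries correlated best with their own number. Between tumors and culture they correlated at -0.0865 to -0.0018. With the replicate block, 1 row was lower and 2 higher in tumors (Sprr2d and Sprr2h). Sprr1a then differed by 0.14 in place of -0.72 (adjusted p = 0.943, limma). Cultured H3.3K36M cells hold only replicates 1 and 2, so in that fit the difference rests on tumors 1 and 2 alone. Nothing is read from these values about the other tumors. Depth limits rows under about 10, where a few estimated reads set the level.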
